A study of Homo sapiens with 18 samples.

Results

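The probe sets described here lie on the 7 alternative haplotype contigs of human chromosome 6, which carry other versions of the major histocompatibility complex (MHC) region. They were chosen by position: every exon-part or junction probe set whose identifier gives chromosome 6 and a contig name that contains "hap". Of the 913055 such probe sets in the whole table, 31545 met this rule. Many of these have identical values on all 9 arrays, since 1 sequence can lie on several contigs, and counting each set of identical values once left 7354 distinct rows, made of 4898 exon parts, 2455 junctions and 1 row that stands for both kinds. A single gene symbol was attached to 5837 of them, covering 180 genes, several symbols to 864 and none to 653.

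The study used MDA-MB-231, a triple-negative human breast cancer cell line. PTX cells were grown in medium that contained 10 nM paclitaxel, a drug that stabilises microtubules, 231T cells received a vector for exogenous TRA2A, a splicing regulator, and control cells had neither. Each group has 3 arrays, and the labels give neither the length of the paclitaxel exposure nor whether 231T is 1 clone. The same 9 arrays were also summarised per transcript cluster in a gene-level table, in which 1430 clusters, 894 of them distinct, lie on the same contigs. Nothing in the labels says whether arrays of 1 group came from separate cultures, so the p-values measure only the spread between these arrays.

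The MHC holds the class I genes, whose products display peptides from inside the cell to cytotoxic T cells and natural killer cells, and the class II genes, which antigen-presenting cells use to display peptides taken up from outside. The region also holds genes that make and load the class I peptides, complement genes, tumour necrosis factor genes and many genes with no immune role. The class I and class II genes differ more between people than almost any other human genes, which is why the assembly carried alternative versions of the region, each named for the cell line it was read from. Promoters of class I genes are known to carry an NF-kB element (enhancer A), an interferon-stimulated response element and a CCAAT box.

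The 250 bases before the annotated start of 5 genes on which the results below turn are shown here on the reference chromosome 6 (RefSeq, GRCh38.p14), because 3 of the genes fell and 2 rose in 231T cells. Capitals mark matches, on either strand, to 3 motifs: GGGNNTTNC, a form of the NF-kB element, TTTCNNTT, the core of the interferon-stimulated element, and CCAAT, none of which contains another. For TAP1 the start nearest to PSMB9 was taken.
HLA-B (chr6:31357180-31357429, minus strand): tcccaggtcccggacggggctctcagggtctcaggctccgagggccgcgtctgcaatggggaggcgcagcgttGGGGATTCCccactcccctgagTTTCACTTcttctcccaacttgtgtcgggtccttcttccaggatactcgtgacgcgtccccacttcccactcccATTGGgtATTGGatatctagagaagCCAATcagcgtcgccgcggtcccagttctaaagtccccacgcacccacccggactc
HLA-C (chr6:31272093-31272342, minus strand): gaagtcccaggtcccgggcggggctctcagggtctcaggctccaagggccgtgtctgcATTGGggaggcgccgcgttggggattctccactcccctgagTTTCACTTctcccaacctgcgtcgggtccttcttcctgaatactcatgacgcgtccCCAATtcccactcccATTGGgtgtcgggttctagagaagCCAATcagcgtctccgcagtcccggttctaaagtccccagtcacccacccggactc
TAP1 (chr6:32853705-32853954, minus strand): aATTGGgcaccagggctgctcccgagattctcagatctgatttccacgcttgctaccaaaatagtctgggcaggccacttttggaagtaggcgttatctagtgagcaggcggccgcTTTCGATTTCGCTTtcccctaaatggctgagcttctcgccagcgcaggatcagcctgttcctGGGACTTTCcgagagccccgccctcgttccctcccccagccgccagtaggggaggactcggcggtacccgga
TAP2 (chr6:32838740-32838989, minus strand): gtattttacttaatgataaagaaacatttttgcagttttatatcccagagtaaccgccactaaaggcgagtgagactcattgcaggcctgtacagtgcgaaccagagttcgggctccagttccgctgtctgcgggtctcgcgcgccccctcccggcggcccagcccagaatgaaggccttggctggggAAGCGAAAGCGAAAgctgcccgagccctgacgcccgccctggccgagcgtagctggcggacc
TCF19 (chr6:31158339-31158588, plus strand): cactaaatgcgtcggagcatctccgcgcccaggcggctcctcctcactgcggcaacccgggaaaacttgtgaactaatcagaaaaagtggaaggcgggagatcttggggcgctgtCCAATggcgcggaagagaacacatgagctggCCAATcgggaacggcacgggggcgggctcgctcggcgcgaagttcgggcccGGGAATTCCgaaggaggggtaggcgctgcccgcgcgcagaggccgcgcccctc
GGGNNTTNC was found in 14.2% of the 35116 promoter windows of this length in RefSeq, TTTCNNTT in 20.3% and CCAAT in 32%. HLA-B, TAP1 and TCF19 each had 1 match to GGGNNTTNC, and HLA-C and TAP2 had none. TTTCNNTT matched 1 time in HLA-B and HLA-C, 2 times in TAP1 and TAP2 and not in TCF19. CCAAT matched 3 times in HLA-B, 4 times in HLA-C, 1 time in TAP1 and 2 times in TCF19, and TAP2 had no match. These matches describe the letters of the windows. A promoter window was listed for 148 of the 180 genes.

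The 2 deposited tables were not made alike for all arrays. They share 2995 rows, and on the 3 231T arrays these rows had the same values in both tables, with a largest difference of 5e-05. On the PTX and control arrays the exon-level values were higher than the gene-level values by a median of 0.17 to 0.19 on the log2 scale. That offset depended on the level: it was 0.37 on both PTX and control arrays for rows between 6 and 8, and -0.04 on PTX arrays and -0.05 on control arrays above 14. PTX and control nearly share the offset, so it touches mainly the comparisons with 231T. For the 268 rows of these contigs present in both tables, its median was 0.19 on PTX arrays and 0.12 on control arrays. Removing the offset moved the median PTX minus control difference of the tested contig rows from -0.048 to -0.050. Over all exon-level probe sets, the median on 231T arrays was 0.40 below that on control arrays as deposited and 0.03 below it with the offset removed from each array. Results with 231T are therefore given as deposited, with the offset removed, and from the gene-level table, where the median over all clusters was 0.07 lower in 231T than in control.

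**Figure D1:**
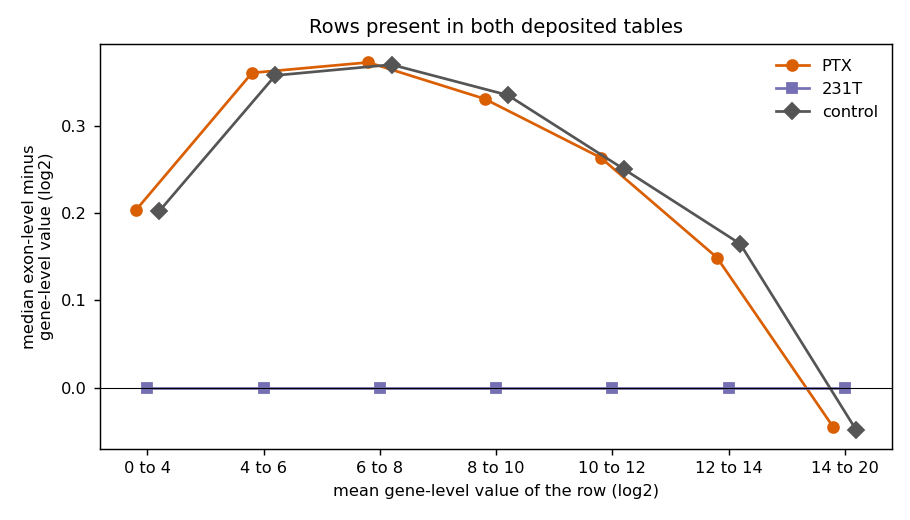
Median exon-level minus gene-level value (log2, y axis) of the 2995 rows present in both tables, by mean gene-level value (x axis, log2), for the PTX, 231T and control arrays. The 231T points lie at 0 in every bin, and the PTX and control curves peak at 0.37 between 6 and 8 and fall below 0 above 14.

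The labels were checked against the gene-level table. TRA2A had 9.37, 9.42 and 9.19 on the 231T arrays, 8.32, 7.82 and 7.60 on the PTX arrays and 6.50, 7.15 and 6.95 on the control arrays (log2). It was higher in 231T than in control (log2 difference 2.46, limma adjusted p = 0.000266), and the PTX difference of 1.04 was not called (adjusted p = 0.0539). VIM and KRT18, which MDA-MB-231 cells express, averaged 13.1 and 12.6 over the 9 arrays, the adhesion gene CD44 10.9, EPCAM 4.85 and CDH1 3.88. Of these, this CD44 cluster was higher in 231T than in control (0.98, adjusted p = 0.00443), and a second CD44 cluster, averaging 4.37, was not called (0.60, adjusted p = 0.164). The leukocyte genes PTPRC, CD3E and CD14 averaged 3.73, 4.10 and 3.83 and were not called in any comparison.

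The contigs share most of their sequence with each other and with the reference. Of the 7354 distinct rows, 4965 (67.5%) were identical to a row of the reference chromosome 6, and 2389 had values found on haplotype contigs alone. A row on 1 contig was also on the reference in 20.7% of 1370 cases, and a row on all 7 contigs in 94.5% of 831 cases. The share rose in between, with 28.0% of 706 rows on 2 contigs, 75.0% of 635 rows on 4 and 92.8% of 1911 rows on 6. The contigs differ in how much of the region they cover: apd_hap1 held 2231 distinct rows, and the other 6 held between 4042 (mann_hap4) and 5373 (cox_hap2). A single junction stood for 30 identifiers on all 7 contigs. It carries the symbols RPS18 and TUBB and had between 19.88 and 19.93 on the 9 arrays, near the highest value of the table (19.9315). The other 4 rows of highest level on all 7 contigs were 3 of TUBB and 1 that lists DDX39B with its neighbours, with values between 19.66 and 19.93, and none of them was called in any comparison.

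**Figure D2:**
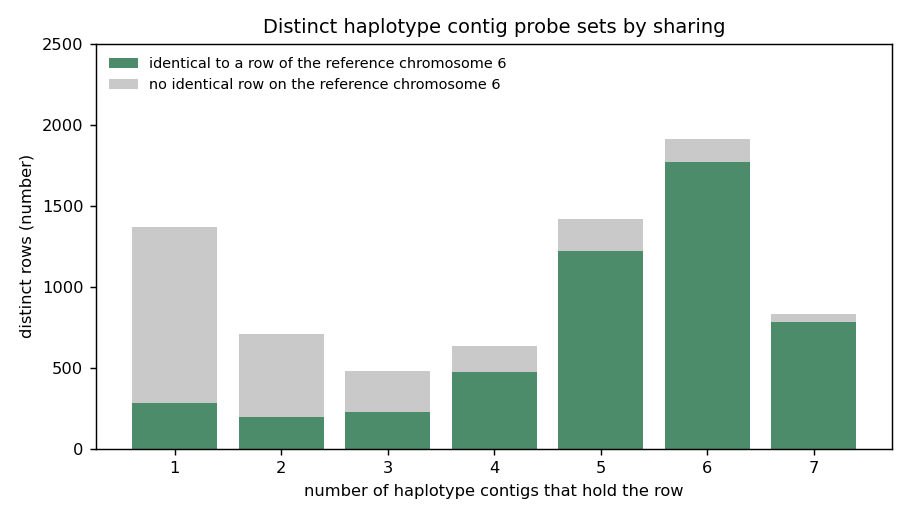
Number of distinct rows (y axis) by the number of haplotype contigs that hold them (x axis). Green bars are rows identical to a row of the reference chromosome 6, and grey bars are rows with no such row. Rows on 1 contig are mostly grey (283 of 1370 also on the reference), and rows on 6 or 7 contigs are mostly green.

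Few exon-level rows of these contigs were called between paclitaxel-treated and control cells. The comparison asks which transcripts of the region changed in cells grown with the drug. Of the 7354 distinct rows, 5691 reached the 25th percentile of the mean value over all probe sets and were tested by limma across the whole table. At an adjusted p below 0.05, none was higher in PTX and 9 were lower, together 0.158% of the rows tested, beside 0.124% of all probe sets tested (0.0302% higher and 0.0936% lower), while 757 (13.3%) had an unadjusted p below 0.05, beside 11.3% of all probe sets. The array medians over the tested rows were 6.23, 6.34 and 6.39 in PTX and 6.42, 6.34 and 6.36 in control (log2). They overlapped, and their difference of -0.05 had an exact two-sided permutation p of 0.5, where 3 arrays against 3 cannot go below 0.1. The 9 calls rest on the whole set of arrays: leaving out any 1 array left between 0 and 5.

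The 2 rows that fell most in PTX were junctions annotated to C6orf48, a host gene of small nucleolar RNAs, together with SNORD48 and SNORD52. JUC6_apd_hap1000233.hg.1, found on 4 contigs, had 7.38, 7.60 and 8.77 on the PTX arrays and 11.70, 11.54 and 11.33 on the control arrays (log2). All PTX arrays lay below all control arrays, and the difference was -3.60 (limma adjusted p = 0.0253). The same row had 7.81, 7.89 and 8.44 on the 231T arrays and was lower there too (-3.48, adjusted p = 0.00035). JUC6_apd_hap1000230.hg.1, also on 4 contigs, differed by -2.88 in PTX (adjusted p = 0.0253), with 10.73, 11.24 and 11.61 on the PTX arrays and 13.92, 14.12 and 14.18 on the control arrays.

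PHF1, a chromatin protein that works with Polycomb repressive complex 2, had 3 of the 9 rows, all on ssto_hap7. The exon part PSR6_ssto_hap7001794.hg.1 had 6.24, 5.44 and 6.86 in PTX and 8.72, 8.79 and 9.32 in control (difference -2.76, adjusted p = 0.0456). At the gene level PHF1 on ssto_hap7 had 6.70, 6.73 and 7.14 in PTX and 7.79, 7.67 and 7.78 in control (-0.89, adjusted p = 0.0204). The cluster of PHF1 on qbl_hap6 averaged 4.52 in PTX and 4.57 in control and was not called (adjusted p = 0.9).

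FLOT1, a scaffold protein of membrane rafts, had 1 called exon part, shared by 5 contigs, with 9.05, 8.33 and 9.20 in PTX and 11.39, 10.73 and 10.82 in control (-2.12, adjusted p = 0.0498). All 5 of its gene-level rows fell in PTX, by 0.56 to 0.87. ATAT1, the enzyme that acetylates alpha-tubulin inside microtubules, had 1 called exon part on 6 contigs, with 8.66, 8.21 and 8.60 in PTX and 10.47, 10.37 and 10.54 in control (-1.97, adjusted p = 0.0329). Its gene-level row on 3 contigs had 5.46, 5.39 and 5.62 in PTX and 6.27, 5.99 and 6.16 in control (-0.65, adjusted p = 0.0261). The 2 exon parts of LOC100507547, whose role is not given here, fell by 2.72 and 2.52.

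No row was called higher in PTX. The exon part of MUC21, a transmembrane mucin, that lies on qbl_hap6 alone had the largest excess under the rule for named rows, with 16.80, 16.65 and 17.55 in PTX and 14.35, 14.02 and 15.16 in control (2.49, adjusted p = 0.072). An unnamed junction on mann_hap4 had 7.61, 7.79 and 6.22 in PTX and 3.79, 4.68 and 6.16 in control (2.33, adjusted p = 0.169). The PTX arrays lay above the control arrays for both rows.

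At the gene level, 4 of 761 tested rows were higher in PTX and 24 lower, together 3.68%, beside 1.74% of all clusters tested (0.436% higher and 1.31% lower). These shares count genes with several rows more than once: TRIM27 and POLR1H had 6 tested rows each and FLOT1 had 5. The 8 genes lower in PTX were ATAT1, FLOT1, PHF1, MSH5, MRPS18B, SLC39A7, TRIM27 and POLR1H, and the 3 higher were ABCF1, TCF19 and SNORD117, all of which are given here because they were called, after their values were seen. MSH5, a MutS homologue of meiotic recombination, had 7.33, 7.43 and 7.54 in PTX and 8.21, 8.32 and 8.42 in control (-0.89, adjusted p = 0.0153). SLC39A7, a zinc transporter, had 8.97, 8.86 and 8.92 in PTX and 9.84, 9.48 and 9.54 in control (-0.70). ABCF1, an ATP-binding protein that takes part in translation initiation, had 10.62, 10.74 and 10.65 in PTX and 10.17, 10.03 and 10.06 in control (0.58, adjusted p = 0.0236). The small nucleolar RNA SNORD117, found on all 7 contigs, had 12.77, 14.11 and 13.48 in PTX and 11.51, 11.66 and 11.01 in control (2.06, adjusted p = 0.0261), whereas in 231T it was lower than in control (10.34, 9.71 and 10.00, difference -1.38). Without PTX replicate 2 or without control replicate 3, none of these gene-level rows was called in PTX.

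No gene of the lists for this region was called in PTX, at either level. Among the class I genes HLA-B, HLA-C, HLA-E, HLA-F, HLA-G, MICA and MICB, limma called 0 of 359 tested rows and 0 of 30 gene-level rows, with 49 and 13 at an unadjusted p below 0.05. Over all features tested, 11.3% of probe sets and 14% of gene-level clusters had such a p. The 30 gene-level rows are versions of the same 7 genes and are not independent. Of the 49 class I rows, 5 were higher in PTX and 44 lower, and all 13 gene-level ones were lower. The median difference of the class I rows was -0.30, beside -0.05 over all tested rows of the contigs. At the gene level these medians were -0.35 and -0.05. For antigen processing (TAP1, TAP2, TAPBP, PSMB8, PSMB9) the counts were 0 of 177 and 0 of 22, with 21 and 13 at an unadjusted p below 0.05. Of these 21 and 13, 13 and 5 were higher in PTX and 8 and 8 lower. The class II, complement, TNF family, tubulin and heat shock lists also had 0 calls, with 20 of 230, 15 of 97, 0 of 23, 4 of 19 and 0 of 18 rows at an unadjusted p below 0.05.

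Cells with exogenous TRA2A differed widely from control cells on these contigs, and the majority of the called rows were lower. The comparison asks what changed in the region when TRA2A was added. As deposited, 238 of 5691 tested rows were higher in 231T and 2074 lower, together 40.6%, beside 31.7% of all probe sets tested. The shares were 4.18% higher and 36.4% lower, beside 8.55% and 23.1% of all probe sets. With the offset removed, 348 of 5680 rows were higher and 1308 lower (6.13% and 23.0%), beside 12.0% and 13.0% of all probe sets. Quantile normalization gave 351 and 1261, beside 12.1% and 12.8% of all probe sets, and centring each array on its median gave 390 and 1168. Over all 684791 probe sets tested, centring gave 89337 higher and 79413 lower. At the gene level, 38 of 761 rows were higher and 237 lower (4.99% and 31.1%), beside 9.75% and 12.5% of all clusters. The 761 rows are not independent: 134 genes had at least 2 of them, usually with close differences. These shares therefore count such genes more than once.

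The array medians of the tested rows were 5.71, 5.61 and 5.75 in 231T and 6.42, 6.34 and 6.36 in control, a difference of -0.68 with groups that do not overlap (exact permutation p = 0.1, the smallest possible). With the offset removed the control arrays had 6.04, 5.97 and 5.97 and the difference was -0.30. The array medians over all exon-level probe sets, with no filter, differed by -0.03 with the offset removed. Taken row by row with the offset removed, the median difference was -0.36 over the tested rows of the contigs. It was -0.06 over all probe sets tested with the same filter. Rows also found on the reference chromosome 6 and rows on haplotype contigs alone had 30.2% and 27.0% called with the offset removed, beside 25% of all probe sets tested. Of the 162 genes tested at the gene level, 57 had only lower called rows, 9 had only higher ones, and no gene had both. At the exon level with the offset removed, 70 of 175 tested genes had called rows in both directions.

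The classical class I genes, which encode the peptide-presenting chains, fell in 231T. HLA-B on 1 contig had 7.69, 7.46 and 7.58 in 231T and 9.13, 8.75 and 8.97 in control (gene-level log2, difference -1.38, limma adjusted p = 0.000855). HLA-C had 8.21, 7.85 and 8.16 in 231T and 9.59, 9.20 and 9.49 in control (-1.35, adjusted p = 0.00144). These are the rows with the largest falls: the 5 rows of HLA-B differed by -1.38 to -0.95 and the 5 of HLA-C by -1.35 to -1.13. For both genes every 231T array lay below every control array, as it did for the non-classical genes HLA-E, HLA-F and HLA-G. HLA-E, a ligand of natural killer cell receptors, had 9.46, 9.15 and 9.35 in 231T and 10.43, 10.02 and 10.10 in control (-0.86). HLA-F differed by -0.75 to -0.83 and HLA-G by -0.98 to -1.08 over their 4 rows each. All 20 gene-level rows of these 5 genes were called lower.

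The stress-induced ligands MICA and MICB did not follow. MICA had 7.79, 7.76 and 8.19 in 231T and 7.79, 7.88 and 7.76 in control (0.10, adjusted p = 0.623), and MICB had 11.51, 11.27 and 11.99 in 231T and 11.30, 11.59 and 11.47 in control (0.14, adjusted p = 0.712). Their arrays overlapped, and none of their 10 gene-level rows was called by limma or had an unadjusted p below 0.05. At the exon level, a MICB junction on all 7 contigs was called higher in 231T (2.11, limma adjusted p = 0.0034, and 2.48 with the offset removed). Over the class I list, 9 of 359 exon-level rows were higher and 157 lower as deposited, and 15 of 357 and 132 with the offset removed. As deposited that is 2.51% higher and 43.7% lower, beside 8.55% and 23.1% of all probe sets tested. With the offset removed it is 4.20% and 37.0%, beside 12.0% and 13.0%. HLA-C had 52 of its rows lower and 0 higher with the offset removed, with a median of -1.70, HLA-B 31 and 0 with a median of -0.75, and HLA-G 18 and 0. The short probes of class I genes can match another class I gene, so the value of each HLA gene is uncertain.

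The genes that make and load class I peptides split. TAP1, a subunit of the transporter that moves peptides into the endoplasmic reticulum, had 5.83, 5.64 and 5.69 in 231T and 7.38, 7.23 and 7.02 in control (-1.49, adjusted p = 0.000442). TAP2, the other subunit of the same transporter, had 7.62, 7.80 and 7.75 in 231T and 6.38, 6.67 and 6.43 in control (1.23, adjusted p = 0.000222). The groups did not overlap for either gene, and the 2 subunits thus changed in opposite directions. All 4 gene-level rows of TAP1 were called lower and all 5 of TAP2 higher.

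PSMB9, a subunit of the immunoproteasome, had 5.47, 5.36 and 5.41 in 231T and 6.29, 6.39 and 6.31 in control (-0.92, adjusted p = 0.0003). PSMB8, another immunoproteasome subunit, was not called in any of its 5 rows, with 5.67, 5.67 and 5.89 in 231T and 5.77, 6.04 and 5.84 in control (-0.14). TAPBP, which bridges the transporter and class I molecules, fell by 0.75 to 0.83 in its 3 rows. At the exon level with the offset removed, TAP1 had 18 rows called lower and 0 higher, TAP2 26 higher and 1 lower, and PSMB9 13 lower and 1 higher. Over the 5 genes of this list, 31 of 177 tested rows were called higher and 54 lower. That is 17.5% and 30.5%, beside 12.0% and 13.0% of all probe sets tested. Single rows moved much further than the gene-level values. A TAPBP junction on 3 contigs had 4.91, 3.79 and 4.59 in 231T and 11.85, 11.15 and 12.26 in control (-7.33), and a PSMB8 junction on dbb_hap3 alone had 10.91, 10.84 and 11.81 in 231T and 16.26, 15.78 and 16.23 in control (-4.90).

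**Figure D3:**
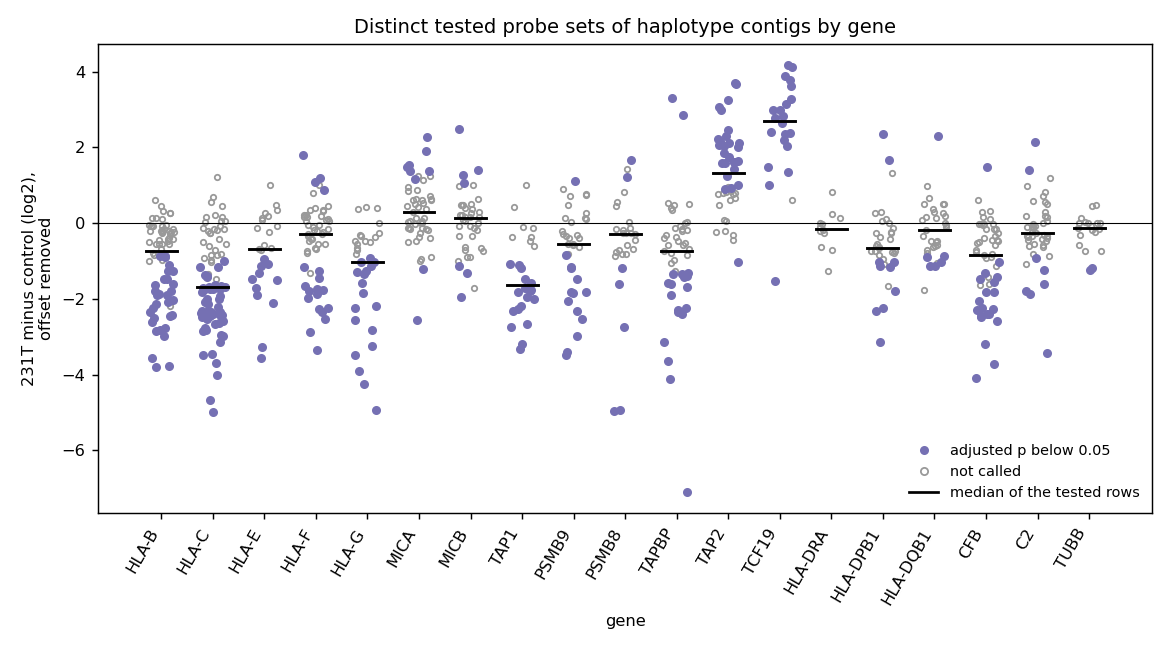
Difference between 231T and control (log2, offset removed, y axis) of each distinct tested row, by gene (x axis). Filled points have an adjusted p below 0.05, open points were not called, and black bars are medians over the tested rows of a gene. HLA-C and TAP1 have medians of -1.70 and -1.64, TAP2 and TCF19 of 1.34 and 2.71.

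TCF19, a nuclear protein with a forkhead-associated domain and a PHD finger, rose in nearly all of its rows. Of its 22 tested exon-level rows, 19 were called higher and 1 lower as deposited, and 20 and 1 with the offset removed, with a median of 2.71. At the gene level it had 8.55, 8.31 and 8.13 in 231T and 5.54, 6.14 and 5.74 in control (2.52, adjusted p = 0.000122) on qbl_hap6 and ssto_hap7, and its 4 rows differed by 2.52 to 2.59. In PTX the same row had 6.48, 6.55 and 6.75 and was not called (0.79, adjusted p = 0.0646), while 2 of the other rows of TCF19 were (0.80 and 0.82, adjusted p = 0.0447 and 0.0438). TCF19 had 4 of the 8 highest named rows in 231T. Its junction JUC6_cox_hap2000356.hg.1, on 6 contigs, had 8.03, 7.88 and 7.02 in 231T and 3.69, 4.01 and 3.56 in control.

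Among called rows whose groups do not overlap, the largest rise was in a junction of ZFP57, a zinc finger protein that keeps genomic imprints, found on 6 contigs. It had 14.09, 12.60 and 13.57 in 231T and 3.37, 3.85 and 4.08 in control (9.65, adjusted p = 1.57e-05). Of the 11 tested rows of ZFP57, 2 were called higher and 3 lower. Over all probe sets tested, 8.55% were higher and 23.1% lower as deposited, and 12.0% and 13.0% with the offset removed. Counts this small do not set the gene apart. A TAP2 junction on all 7 contigs had 17.23, 17.41 and 17.54 in 231T and 13.99, 13.83 and 13.57 in control (3.60). The other rows among the 8 highest were a junction annotated to TNXA and TNXB (4.94) and 1 junction with no gene name (3.90).

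The largest falls were in a junction and an exon part of MUC21. The junction, on 4 contigs, had 5.59, 6.54 and 6.23 in 231T and 14.62, 14.13 and 15.41 in control (-8.60, adjusted p = 2.12e-05), and the exon part on qbl_hap6 differed by -8.37. Of 48 tested MUC21 rows, 10 were lower and 1 higher with the offset removed. By the same measure 23.0% of the tested rows of the contigs and 13.0% of all probe sets were lower. An unnamed junction on all 7 contigs had 10.89, 9.16 and 9.67 in 231T and 16.29, 16.15 and 16.53 in control (-6.42). A junction of HLA-H, a class I pseudogene, had 9.74, 8.32 and 8.22 in 231T and 14.99, 14.84 and 15.10 in control (-6.21). An exon part of HLA-G on mann_hap4 alone differed by -5.23, one of PBX2, a homeodomain protein, on ssto_hap7 alone by -5.83, and a junction of SLC44A4, a choline transporter-like protein, by -5.62.

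Class II genes had mostly low values. HLA-DRA had 4.07, 3.93 and 4.19 in 231T and 4.30, 4.12 and 4.25 in control (gene-level log2), and its arrays overlapped (-0.16, adjusted p = 0.357). Of 41 tested gene-level class II rows 12 were lower and none higher: all 7 of HLA-DMB and all 5 of HLA-DPB1, both by at most 0.41. Over all clusters tested, 12.5% were lower and 9.75% higher. HLA-DMA, a chain of the class II peptide exchange factor, had larger differences that were not called: its row on 5 contigs had 5.32, 5.34 and 5.65 in 231T and 5.99, 6.18 and 5.82 in control (-0.56, adjusted p = 0.0523), and its other 2 rows differed by -0.67 and -0.69. All 3 231T arrays lay below the control arrays in each row of HLA-DMA, and 18 of the 41 rows had an unadjusted p below 0.05, all of them lower in 231T. Such a p was found for 34.7% of all clusters tested. At the exon level 6 of 230 rows were higher and 75 lower as deposited, and 8 of 228 and 32 with the offset removed. The share lower with the offset removed, 14%, is close to the 13.0% of all probe sets tested, so the exon-level count does not set the class II genes apart.

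CFB, the complement factor that forms the alternative pathway convertase, fell in all 5 of its gene-level rows, with 4.40, 4.43 and 4.55 in 231T and 5.31, 5.06 and 5.10 in control on the row shared by 2 contigs (-0.70, adjusted p = 0.0025). C2, its counterpart in the classical pathway, was not called (-0.07, adjusted p = 0.615). Over both genes, 2 of 97 exon-level rows were higher and 37 lower as deposited, and 3 and 25 with the offset removed (25.8% lower, beside 13.0% of all probe sets tested). For the TNF family (TNF, LTA, LTB) these counts were 1 and 7 of 23, and 1 and 2 (8.70% lower, below the share of all probe sets). At the gene level none of 3 TNF family rows and none of 7 heat shock rows was called or had an unadjusted p below 0.05. TUBB, a beta-tubulin, had 16.83, 16.75 and 16.80 in 231T, 16.84, 16.81 and 16.83 in PTX and 16.79, 16.83 and 16.83 in control at the gene level, and was not called there. Of its 19 tested exon-level rows, 2 were lower in 231T than in control and 5 were higher in PTX than in 231T, as deposited and with the offset removed. The 2 rows are 10.5%, beside 23.1% of all probe sets tested as deposited and 13.0% with the offset removed. The 5 rows are 26.3%, beside 22.3% and 11.6%.

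Several genes outside the lists, picked after their values were seen, also fell in 231T. FLOT1 had 7.93, 7.71 and 7.92 in 231T and 9.27, 9.18 and 9.17 in control on the row shared by 3 contigs (-1.35, adjusted p = 0.000124). MDC1, a mediator of the DNA damage checkpoint, had 7.08, 7.15 and 6.84 in 231T and 8.59, 8.21 and 8.46 in control (-1.40). IFITM4P, a pseudogene of the interferon-induced transmembrane family, had 7.75, 7.52 and 7.50 in 231T and 10.70, 10.13 and 10.25 in control (-2.77). DDR1, a collagen receptor, fell by 0.47 to 1.04 over 5 rows. ABCF1 was higher, with 10.89, 10.69 and 10.79 in 231T and 10.17, 10.03 and 10.06 in control (0.70, adjusted p = 0.00107).

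**Figure D4:**
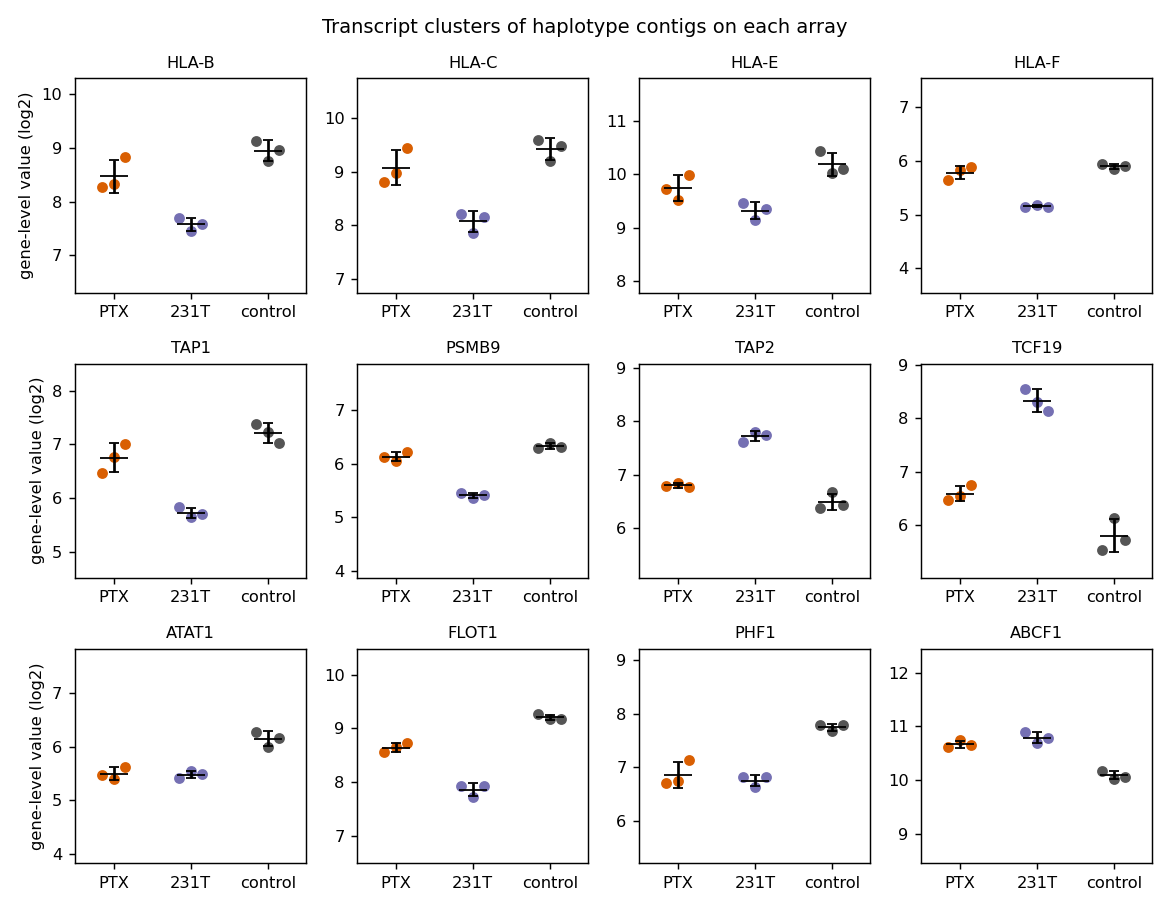
Gene-level values (log2, y axis) of 12 genes on the PTX, 231T and control arrays (x axis), from the row on the most contigs. Where rows tied, the row of highest mean was taken. Points are arrays, bars are the mean ± SD (n = 3), and each panel spans the same number of log2 units. The 231T points lie below the control points for HLA-B, HLA-C, HLA-E, HLA-F, TAP1, PSMB9, ATAT1, FLOT1 and PHF1, and above them for TAP2, TCF19 and ABCF1. The PHF1 panel shows the ssto_hap7 row, and the qbl_hap6 row of PHF1, not shown, differed by 0.07 between 231T and control.

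Between the 2 altered cell populations, PTX cells had the higher values on most called rows. As deposited, 1829 of 5691 rows were higher in PTX than in 231T and 227 lower, together 36.1%, beside 30.3% of all probe sets tested (22.3% higher and 8.01% lower). With the offset removed, 1076 were higher and 367 lower (25.4%, beside 23.0% of all probe sets, 11.6% higher and 11.4% lower), and at the gene level 164 of 761 were higher and 42 lower (27.1%, beside 22.2% of all clusters, 11.8% higher and 10.4% lower). Here too the gene-level shares count genes with several rows more than once. This comparison shares the PTX and 231T arrays with those above, so it is no further evidence for them.

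HLA-B was higher in PTX than in 231T by 0.90 (adjusted p = 0.00682), HLA-C by 1.0 (adjusted p = 0.00679), TAP1 by 1.03 and PSMB9 by 0.72, and TAP2 was lower by 0.92 on the log2 scale. HLA-E had 9.73, 9.51 and 10.00 in PTX and 9.46, 9.15 and 9.35 in 231T and was not called (0.42, adjusted p = 0.0904). CFB, with 5.41, 5.28 and 5.54 in PTX and 4.40, 4.43 and 4.55 in 231T, differed by 0.95 (adjusted p = 0.00111), and 2 of its junctions were among the 8 rows with the largest excess in PTX. An exon part of TRIM31, a ubiquitin ligase, had 13.63, 15.84 and 14.38 in PTX and 8.52, 8.47 and 9.35 in 231T. For ATAT1, PHF1, MSH5 and ABCF1, which had moved the same way against control in both, PTX and 231T did not differ past the threshold (differences of 0.02, 0.11, 0.02 and -0.12). Exon parts of AGER, the receptor for advanced glycation end products, and LSM2, a subunit of the complex that binds U6 small nuclear RNA, and a junction of MICB were among the 8 rows lowest in PTX relative to 231T. MICB was also called lower in PTX than in 231T at the gene level.

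The 7 contigs gave close values when each was summarised by the median of its tested rows. For PTX minus control the contig medians differed by -0.07 (qbl_hap6) to -0.04 (mann_hap4), a spread of 0.035. For 231T minus control the range was -0.76 (mcf_hap5) to -0.63 (apd_hap1) as deposited, a spread of 0.124, and -0.38 to -0.26 with the offset removed, a spread of 0.123. For PTX minus 231T it was 0.58 to 0.69. In each contig the 3 231T arrays lay below the 3 control arrays (exact permutation p = 0.1 for each of the 7, also after adjustment over them). For 231T minus control apd_hap1 lay 0.09 above the mean of the other contigs (exact permutation p = 0.1, or 0.175 after adjustment over the 7), but the distance was 0.02 with no filter and -0.04 with a filter at the 50th percentile, so its direction depends on the filter. The same p of 0.1 was found for dbb_hap3, mcf_hap5 and qbl_hap6. Most rows are on several contigs, so these medians share rows.

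Rows found on 1 contig alone share nothing between contigs, and they spread more widely. Their 231T minus control medians lay between -0.85 (qbl_hap6, 200 rows) and -0.31 (dbb_hap3, 107 rows), a spread of 0.535. For PTX minus control they lay between -0.43 (apd_hap1, 42 rows) and 0.06 (mann_hap4, 139 rows), a spread of 0.488, and the exact permutation p for apd_hap1 was 0.1, or 0.35 after adjustment over the 7 contigs. Among the rows of highest level found on 1 contig alone, some fell and others were not called. An unnamed exon part of apd_hap1 had 14.21, 13.52 and 13.33 in 231T and 18.83, 18.80 and 18.82 in control (-5.13). An exon part of the pseudogene HLA-J on mcf_hap5 had 17.83, 18.02 and 18.27 in 231T and 19.46, 19.15 and 19.14 in control (-1.21). An exon part of TUBB on cox_hap2 had 18.46, 18.26 and 18.45 in 231T and 17.94, 18.69 and 18.42 in control and was not called, nor was an unnamed exon part of mann_hap4 with values between 19.77 and 19.91. The rows of highest level on ssto_hap7 (HLA-J) and qbl_hap6 (unnamed) differed by -2.83 and -3.79.

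**Figure D5:**
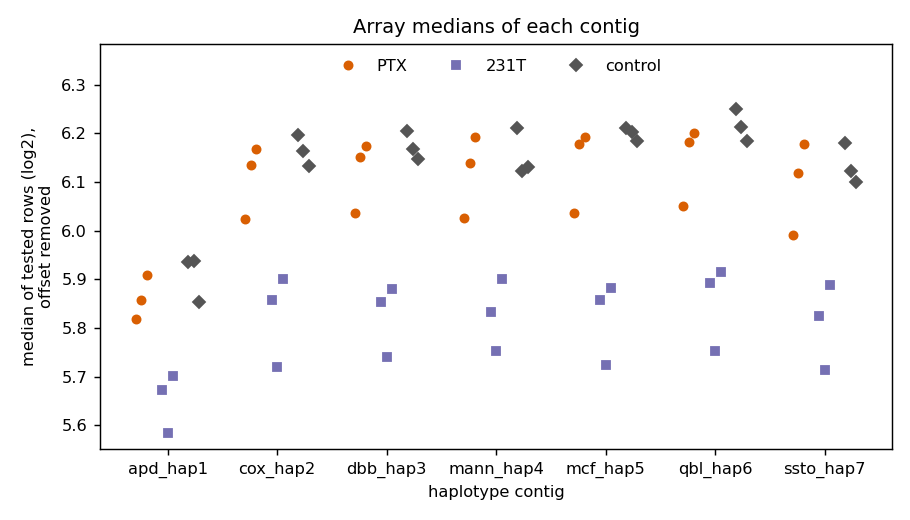
Median of the distinct tested rows of each contig (log2, offset removed, y axis) on each PTX, 231T and control array. In all 7 contigs the 231T points lie below the PTX and control points, and the apd_hap1 points lie below those of the other contigs of the same group.

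Different versions of 1 gene usually gave close differences. Of 134 genes with at least 2 tested gene-level rows, the range of the 231T minus control difference over the rows had a median of 0.07, and it was over 0.5 in 11 genes. For PTX minus control the median range was 0.05, and it was over 0.5 in 4 genes, BRD2, KIFC1, PHF1 and RPS18, which are also among the 11. FLOT1 had the widest range: its row on apd_hap1 averaged 8.88 in 231T and 11.76 in control (-2.89), its row on mcf_hap5 differed by -1.97, and the other 3 by -1.34 to -1.37. PHF1 differed by -1.0 on ssto_hap7 and by 0.07 on qbl_hap6, where it averaged 4.64 in 231T and 4.57 in control. KIFC1, a kinesin motor, differed by -0.41 to 0.20, and DAXX, a histone chaperone, by -0.25 to 0.33. TAP1, TAP2 and TCF19 differed between their rows by less than 0.1. Whether the rows of a gene differ between contigs was not tested, and rows of 1 gene can hold different exons.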

How the data were processed

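Total RNA of MDA-MB-231 cells was hybridised to Affymetrix arrays. The authors deposited 1 exon-level and 1 gene-level table of log2 values for the same 9 arrays, made with RMA in Affymetrix Expression Console 1.3.1, per the submitters' processing notes. Which arrays went through RMA together is not given in the sources used here. Depth cannot be counted on arrays, and precision is limited by the 3 arrays per group. Genes came from the platform annotation, and probe sets that list several genes were left unnamed.

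Rows identical on all 9 arrays were counted once. The whole exon-level table was fitted with limma 3.58.1 (R 4.3.3; lmFit and eBayes, 3 groups, no covariates) after leaving out rows with a mean under the 25th percentile (3.89), with Benjamini-Hochberg adjustment over all 684791 rows and a threshold of 0.05; the gene-level table was treated alike (50646 rows). The script was tested on simulated data. The offset between the tables was removed per array with a lowess curve (span 0.2) over the 2995 shared rows, a step chosen after the data were seen. Array medians were compared by exact two-sided permutation tests. Named rows were, per comparison, the 8 highest and 8 lowest called rows whose arrays do not overlap (the 2 largest where none was called), the 5 rows of highest mean on the most contigs, and for each contig the row of highest mean found on it alone; list genes are named where annotated. The members and lists were chosen with earlier results of these data known. Same-numbered arrays of different groups had correlations of their deviations between -0.137 and 0.0753, so the numbers do not pair the arrays. Alternatives were other filters, quantile normalization, centring, array weights, pairwise fits, collapsing identical rows first, and leaving out each array.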

Additional observations from a re-analysis of the deposited data

How the results depend on the processing

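The median 231T minus control difference stayed below 0 under every alternative run. Called rows lower in 231T than in control numbered 2074 as deposited, 1261 after quantile normalization, 1168 with centred arrays and 1308 with the offset removed, and called rows higher numbered 238 and, with centred arrays, 390; leaving out 1 array gave 154 to 247 higher (154 without control replicate 1) and 1502 to 2102 lower. The median difference of -0.70 became -0.53 with no filter, -0.84 with a filter at the 50th percentile, -0.36 after quantile normalization, -0.30 with centred arrays and -0.36 with the offset removed. For PTX minus 231T the counts of 1829 higher and 227 lower became 1075 and 362 after quantile normalization, 926 and 434 with centred arrays and 1076 and 367 with the offset removed, and the median of 0.63 became 0.47 with no filter, 0.73 with the stricter filter, 0.31, 0.21 and 0.30. The 9 rows lower in PTX than in control became 19 with the stricter filter, 16 with array weights, 0 with only these 2 groups in the fit and 0 to 5 when 1 array was left out (1 without PTX replicate 3, 5 without 231T replicate 3, 0 for each other array). At the gene level the 4 rows higher in PTX became 2 with no filter, 2 with centred arrays, 0 with only these 2 groups and 0 to 3 when 1 array was left out, and the 24 lower became 39 with the stricter filter, 1 with only these 2 groups and 0 to 24 when 1 array was left out (0 without PTX replicate 2 or control replicate 3, 2 and 4 without control replicates 1 and 2, 11 and 12 without 231T replicates 1 and 2, and 14 without PTX replicate 1). Gene-level rows of PTX minus 231T were 109 to 185 higher (109 without 231T replicate 2) and 25 to 41 lower (25 without PTX replicate 2). The spread between contigs of 0.124 for 231T minus control became 0.0445 with no filter; over rows on 1 contig alone the spreads were 0.488, 0.535 and 0.634 for the 3 comparisons. The cause of these shifts was not tested, except that the stricter filter tests fewer rows and leaving out arrays uses fewer.

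With the replicate number as a block, which does not pair these arrays, 0 rows were called lower in PTX, and 202 were higher and 1797 lower in 231T than in control; no gene-level row was called in PTX. Of 144 alternative values for the 8 called named rows of PTX minus control, 86 lost the call and none turned direction. All 8 lost it with the block, with only these 2 groups and without each array other than PTX replicate 3 (7 lost) and 231T replicate 3 (3 lost), while all 287 for 231T minus control and all 288 for PTX minus 231T kept theirs. Values near the top of the scale leave little room to rise, and class II values near the low end little room to fall.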
